A study of Mus musculus with 6 samples.

Results

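The neurofilament and axonal cytoskeleton genes are 10 genes of neurons: the neurofilament subunits Nefl, Nefm, Nefh and Ina, the microtubule-associated proteins Mapt, Map1b and Map2, the neurite growth proteins Gap43 and Stmn2, and the neuronal beta-tubulin Tubb3. They were chosen by name, and all 10 were found by Ensembl identifier among the 54532 genes of the deposited table. The samples were brain tissue (all cell types together) of mice on a C57BL/6 background at postnatal day 15, 3 labelled Angptl2+/+ (WT) and 3 labelled Angptl2-/- (KO), and the study sequenced them to look for signals downstream of ANGPTL2, a secreted protein, in myelination. The KO allele lacks exon 2 of Angptl2 in the germline, after recombination by Stra8-cre, a Cre driven by a promoter of early male germ cells, so the deletion is not limited to 1 cell type. The deposited value is the FPKM (fragments per kilobase of exon, scaled to library depth), which can be compared between genes because it is per length. Separate mice are not stated for the 6 samples, and p-values therefore measure the spread between samples only, which may in part be technical.

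Neurofilaments are the intermediate filaments of axons. They are built from a light (Nefl), a medium (Nefm) and a heavy (Nefh) chain together with alpha-internexin (Ina), which appears early in development, whereas the heavy chain accumulates as axons mature and thicken. Microtubules, the other main axonal polymer, are built from tubulins such as Tubb3 and are stabilised by tau (Mapt), MAP1B, which is abundant in growing axons, and MAP2, which is found mainly in dendrites. GAP43 and the tubulin-binding protein stathmin 2 (Stmn2) belong to growth cones.

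The feature that sets the heavy chain apart is its tail, in which lysine-serine-proline repeats are phosphorylated in mature axons. In GENCODE M21 (GRCm38), the 3270 coding bases of the transcript Nefh-201 hold 51 in-frame codon triplets for lysine, serine and proline (15.6 per kb). The 2544 coding bases of Nefm-201 hold 4 (1.57 per kb), and Nefl-201 and Ina-201 hold 0. A stretch of 180 coding bases from each of Nefh and Nefm is printed below 5′ to 3′ to show this difference between subunits, with the triplets in capitals. The Nefh stretch lies in exon 4 of 4, at chr11:4940884-4941063 on the minus strand, covers codons 519 to 578 and holds 10 triplets. The Nefm stretch lies in exon 3 of 3, at chr14:68121063-68121242 on the minus strand, covers codons 448 to 507 and holds 2.
Nefh: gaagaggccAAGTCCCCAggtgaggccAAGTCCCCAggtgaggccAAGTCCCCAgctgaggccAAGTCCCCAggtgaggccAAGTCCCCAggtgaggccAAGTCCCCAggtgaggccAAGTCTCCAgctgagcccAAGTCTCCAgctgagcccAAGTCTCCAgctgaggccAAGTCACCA
Nefm: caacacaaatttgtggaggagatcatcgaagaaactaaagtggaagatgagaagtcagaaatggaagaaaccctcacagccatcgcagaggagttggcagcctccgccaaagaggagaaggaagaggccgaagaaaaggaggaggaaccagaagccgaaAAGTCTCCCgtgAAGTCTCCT

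The checks of the labels and libraries gave the following. Angptl2 itself was at 0.660, 0.958 and 0.291 FPKM in WT replicates 1, 2 and 3 and at 0.166, 0.320 and 0.126 FPKM in KO replicates 1, 2 and 3, with 1 overlap between the groups (two-sided exact permutation test, p = 0.2, where 0.1 is the smallest p possible). Fragments recovered from the FPKM values summed to 17127276 to 18928921 per library over the genes. Markers of neurons, 10 genes such as Uchl1, summed to 1625 to 2005 FPKM in WT and to 1614 to 1780 FPKM in KO, in keeping with neural tissue. Of these 10 markers, 0 were higher and 3 lower at limma's unadjusted p under 0.05, beside 7.09% and 9.12% of all genes (median log2 fold change −0.03). WT replicate 1 stood apart: 7 cerebellar markers summed to 121.1 FPKM there, against 43.51 to 51.54 in the other 5 libraries, and Cbln3, Gabra6 and Pcp2 reached 0.5 FPKM in no other library. Its 8 hindbrain markers summed to 5.77 FPKM, against 0.44 to 0.86 elsewhere, with Hoxa2, Hoxb2 and Hoxb3 at 0 in every library. The 6 choroid plexus markers, led by Ttr, summed to 1.84 to 8.21 FPKM in WT and to 104.3 to 939.0 FPKM in KO, and 7 striatal markers, led by Penk, summed to 54.7 to 136.1 FPKM in WT and to 122.8 to 236.7 FPKM in KO. At limma's unadjusted p under 0.05, 3 of 6 choroid plexus and 5 of 7 striatal markers were higher, beside 7.09% of all genes. In both lists 0 were lower, beside 9.12%, and the median log2 fold changes were 1.92 and 1.44. Mature oligodendrocyte markers, 7 genes such as Mag, summed to 850.7, 425.2 and 385.3 FPKM in WT and to 250.3, 322.4 and 473.0 FPKM in KO replicates 1, 2 and 3, and 7 of 7 had a negative log2 fold change (median −0.65). Red blood cell genes, led by Hbb-bs, summed to 301.6 to 497.6 FPKM in WT and to 124.8 to 274.1 FPKM in KO. Of these genes, 5 of 5 were lower at limma's unadjusted p under 0.05, beside 9.12% of all genes (median log2 fold change −1.08). Summed endothelial markers were at 76.97 to 79.82 FPKM in WT and 57.86 to 68.28 FPKM in KO, while the sums for cortical excitatory neurons, inhibitory neurons, thalamus, astrocytes and microglia overlapped between the groups. Xist, the transcript of the inactive X chromosome, exceeded the mean of Y-linked genes in 2 of 3 WT and 1 of 3 KO libraries, so sex was not balanced between the genotypes. The part of the cell type and region markers in the results was not tested.

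The 10 genes were abundant, each above the level of 84.9% or more of the genes tested. Averaged over the 6 libraries, Tubb3 was highest at 269.1 FPKM, followed by Gap43 (207.3 FPKM), Stmn2 (120.4 FPKM) and Nefl (96.2 FPKM). Then came Map1b at 82.9 FPKM, Map2 at 73.7 FPKM, Ina at 66.9 FPKM, Mapt at 55.2 FPKM, Nefm at 50.04 FPKM and Nefh at 21.9 FPKM. Every pair of neighbours in this order overlapped in their ranges over the libraries. Tubb3 was nonetheless the highest and Nefh the lowest of the 10 genes in each of the 6 libraries, and Nefl exceeded Nefm, which exceeded Nefh, in each. Within a gene, the highest library exceeded the lowest by 1.32 times (Map1b) to 2.67 times (Nefh). All 10 passed the minimum mean of 0.5 FPKM, with at least 1052 recovered fragments per gene and library, so that counting error was small beside the spread over all 6 libraries. It was not compared with the spread within a genotype, which was very narrow for Map1b in KO (90.27 ± 0.49 FPKM, SD).

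Between the genotypes, the neurofilament subunits had lower mean FPKM in the KO brains, most clearly Nefh and Nefm, and Mapt had a slightly lower mean. Map1b, Map2, Stmn2 and Gap43 had higher mean FPKM, and Tubb3 had similar means. None of these differences passed the test over all genes. limma on log2(FPKM + 0.1) called 0 of 14862 genes (0.0%) at an adjusted p under 0.05, and 0 of the 10 genes. At an unadjusted p under 0.05, 3 of the 10 genes were higher (Map1b, Map2 and Stmn2) beside 7.09% of all genes (1054), and 3 were lower (Nefm, Nefh and Ina) beside 9.12% of all genes (1355). limma voom on recovered fragments also called 0 genes at an adjusted p under 0.05, with 1151 higher and 1224 lower at the unadjusted p. With sex as a covariate in limma, the log2 fold change was −0.73 for Nefm, −0.76 for Nefh, −0.37 for Ina and 0.33 for Stmn2, and 1 of the 10 genes was higher and 2 lower at the unadjusted p, beside 4.12% and 6.34% of all genes. The groups did not overlap for 5 of the 10 genes, 3 higher and 2 lower, where 22.5% of all genes did not overlap. The median log2 fold change of the 10 genes was −0.09, and that of all genes tested was −0.0043. Because RNA came from whole tissue, fewer cells of a type and less RNA per cell cannot be told apart.

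**Figure D1:**
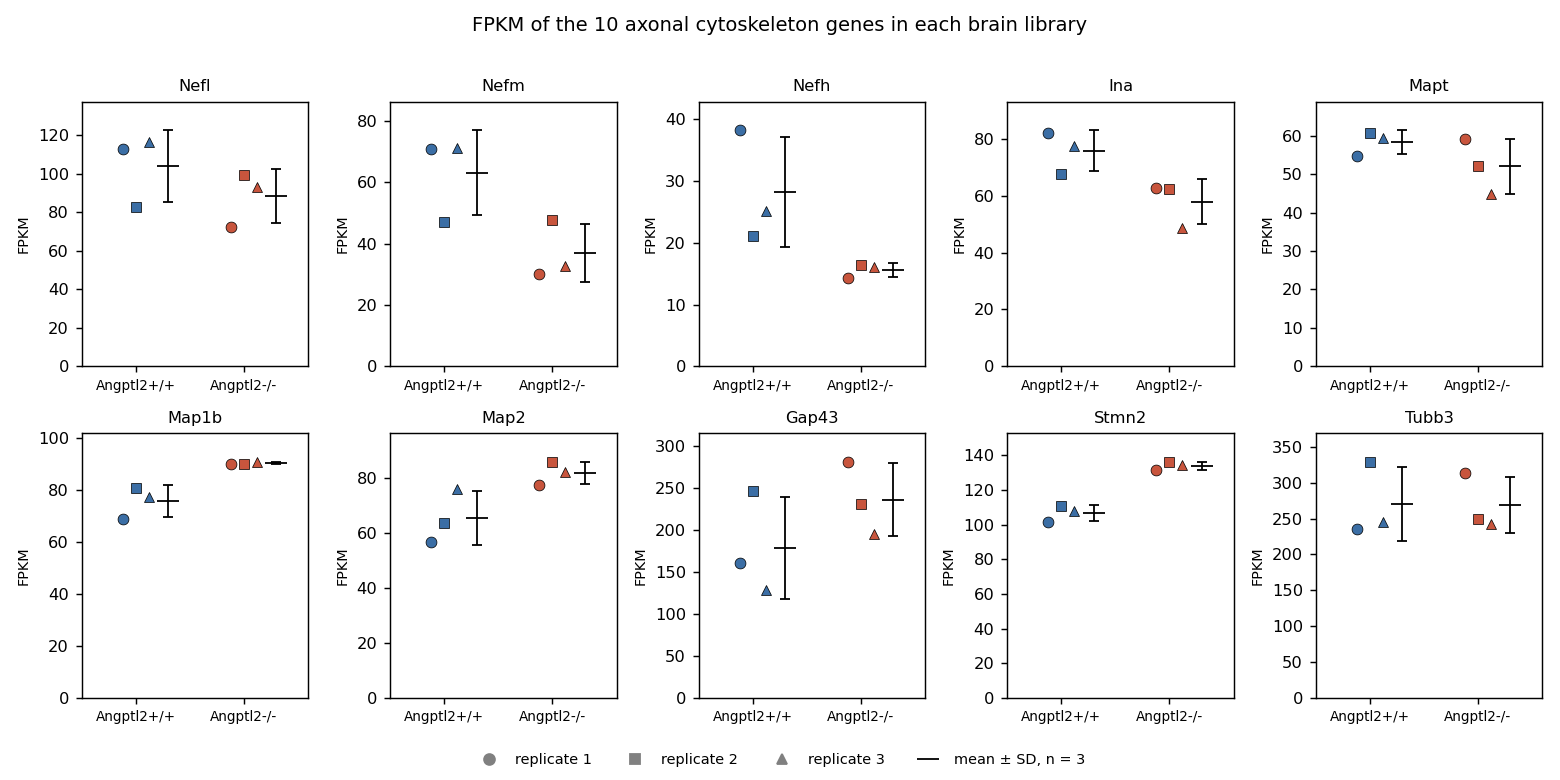
FPKM of each of the 10 genes (vertical axes, from 0) in the 3 Angptl2+/+ and 3 Angptl2-/- brain libraries, with the mean and SD of each group (n = 3) beside the points. Nefh and Ina are lower in all 3 Angptl2-/- libraries than in any Angptl2+/+ library, and Map1b, Map2 and Stmn2 are higher.

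Nefh, the heavy chain (ENSMUSG00000020396, chromosome 11, 4938754 to 4948064, minus strand), was at 38.22, 21.14 and 25.19 FPKM in WT replicates 1, 2 and 3. In KO replicates 1, 2 and 3 it was at 14.30, 16.32 and 16.08 FPKM. All 3 KO values lay below all 3 WT values, and WT replicate 1, the library with cerebellar and hindbrain transcripts, was the highest of the 6. The means were 28.2 ± 8.92 and 15.6 ± 1.10 FPKM (SD, n = 3 per group). Nefh thus differed by −0.81 on the log2 scale, KO minus WT (standard error 0.210, 95% confidence interval −1.30 to −0.32, limma adjusted p = 0.2725). Leaving out WT replicate 1 gave −0.57.

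Nefm, the medium chain (ENSMUSG00000022054, chromosome 14, 68082590 to 68124846, minus strand), was at 71.04, 47.22 and 71.32 FPKM in the WT libraries. In the KO libraries it was at 30.08, 47.80 and 32.78 FPKM. The groups overlapped at a single point, since KO replicate 2 lay just above WT replicate 2. The means of 63.2 ± 13.8 and 36.9 ± 9.55 FPKM (SD, n = 3 per group) differed by −0.78 on the log2 scale (standard error 0.227, 95% confidence interval −1.31 to −0.25, limma adjusted p = 0.2725), and −0.68 without WT replicate 1.

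Ina, alpha-internexin (ENSMUSG00000034336, chromosome 19, 47014698 to 47025327, plus strand), was at 82.06, 67.85 and 77.63 FPKM in WT and at 62.84, 62.24 and 48.78 FPKM in KO replicates 1, 2 and 3. The groups did not overlap, although KO replicates 1 and 2 came within a few FPKM of WT replicate 2. On the log2 scale Ina differed by −0.39 (standard error 0.136, 95% confidence interval −0.71 to −0.07, limma adjusted p = 0.2765). Without WT replicate 1 it differed by −0.33 and no longer had an unadjusted p under 0.05.

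Nefl, the light chain and core subunit (ENSMUSG00000022055, chromosome 14, 68083863 to 68089095, plus strand), was at 113.1, 82.66 and 116.5 FPKM in WT and at 72.59, 99.31 and 93.20 FPKM in KO replicates 1, 2 and 3. Here the groups overlapped, with WT replicate 2 below 2 of the KO libraries. The log2 fold change was −0.23, with an interval from −0.65 to 0.18 (limma adjusted p = 0.5142). It was −0.10 without KO replicate 1, −0.14 without WT replicate 3 and −0.39 without WT replicate 2. In GENCODE M21, Nefl lies within the span of Nefm, on the opposite strand. They share 1108 exon bases, 32.78% of the exon bases of Nefl and 19.16% of those of Nefm. Ina shares 456 exon bases with Nt5c2 on the opposite strand. Whether the counting used strand is not given in the sources used here, so reads in these shared bases cannot be assigned with certainty.

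A ratio of 2 genes within a library does not depend on how the libraries were scaled. The ratio of Nefm to Nefl was 0.628, 0.571 and 0.612 in WT replicates 1, 2 and 3 and 0.414, 0.481 and 0.352 in KO replicates 1, 2 and 3. For Nefh to Nefl it was 0.338, 0.256 and 0.216 in WT and 0.197, 0.164 and 0.173 in KO. Both ratios were lower in every KO library than in any WT library. Nefm (57.8% GC) and Nefh (58.4% GC) are richer in GC than Nefl (48.8% GC). After a correction of each library for GC content, given below, both ratios overlapped between the groups. Their log2 differences moved from −0.55 and −0.58 to −0.25 and −0.26. The ratio of Ina to Nefl overlapped between the groups before any correction (0.666 to 0.821 in WT, 0.523 to 0.866 in KO). The ratio of Nefh to Gap43, a subunit of mature axons against a protein of growing ones, was 0.237, 0.0858 and 0.196 in WT and 0.0508, 0.0705 and 0.0826 in KO. WT replicate 2 came close to the highest KO value in this ratio. Without WT replicate 1 the log2 difference in ratio was −0.52 for Nefm to Nefl, −0.41 for Nefh to Nefl and −0.96 for Nefh to Gap43.

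**Figure D2:**
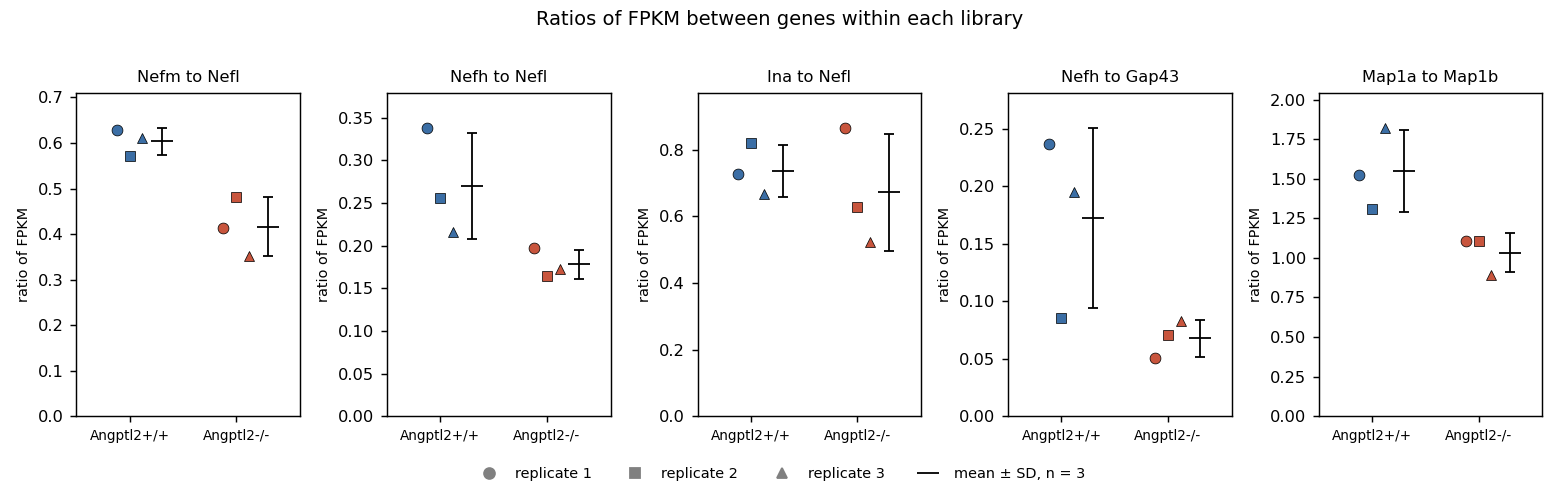
Ratio of FPKM between pairs of genes within each library (vertical axes, from 0), for the 3 Angptl2+/+ and 3 Angptl2-/- libraries, with mean and SD (n = 3). Without a GC correction, the groups are apart for Nefm to Nefl, Nefh to Nefl, Nefh to Gap43 and Map1a to Map1b. They overlap for Ina to Nefl.

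Among the microtubule-associated proteins, Map1b (ENSMUSG00000052727, chromosome 13, 99421446 to 99516540, minus strand) was at 68.71, 80.69 and 77.23 FPKM in WT and at 89.92, 90.07 and 90.83 FPKM in KO replicates 1, 2 and 3. The KO libraries were nearly identical and all above WT, and Map1b differed by 0.26 on the log2 scale (standard error 0.0980, 95% confidence interval 0.03 to 0.49, limma adjusted p = 0.2839). Map2 (ENSMUSG00000015222, chromosome 1, 66175273 to 66442583, plus strand) was at 56.66, 63.77 and 76.13 FPKM in WT and at 77.67, 85.85 and 82.15 FPKM in KO, so that WT replicate 3 almost reached KO replicate 1. Its log2 fold change was 0.33 (standard error 0.128, 95% confidence interval 0.03 to 0.63, limma adjusted p = 0.2868). Without WT replicate 1 the log2 fold changes were 0.19 for Map1b and 0.23 for Map2. After a correction of each library for gene length they were 0.12 and 0.18.

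Mapt, or tau (ENSMUSG00000018411, chromosome 11, 104231390 to 104332090, plus strand), was at 54.80, 60.74 and 59.46 FPKM in WT and at 59.26, 52.12 and 44.83 FPKM in KO replicates 1, 2 and 3. The groups overlapped, since KO replicate 1 lay among the WT values, and the log2 fold change of −0.17 had an interval from −0.46 to 0.12 (limma adjusted p = 0.4946). It was −0.07 without KO replicate 3 and −0.27 without KO replicate 1. Map1a, the relative of Map1b that is abundant in mature neurons, was at 104.5, 105.5 and 140.7 FPKM in WT and at 99.42, 99.41 and 80.84 FPKM in KO. The ratio of Map1a to Map1b was 1.52, 1.31 and 1.82 in WT and 1.11, 1.10 and 0.89 in KO replicates 1, 2 and 3. The groups did not overlap in this ratio before the correction for GC content given below.

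Promoters of 4 of the 10 genes have an entry in the RefSeq table (GRCm38.p6), which spans 250 bases before to 50 after a start. Those of Map1b and Map2 are printed 5′ to 3′ because these are the microtubule-associated genes that were both higher in every KO library. Capitals mark the GC box GGGCGG, searched on both strands, and the TATA box TATAAA, searched on both strands; the motifs do not overlap here. The Map1b promoter, at chr13:99516553-99516852 on the minus strand, has 2 GC boxes and 1 TATA box. Its window lies wholly before the Map1b gene of GENCODE M21, whose start differs from the RefSeq one. The boxes in both promoters are matches of letters, and their function was not tested. The Map2 promoter, at chr1:66175079-66175378 on the plus strand, has 5 GC boxes and 0 TATA boxes. Of 32851 promoters in the table, 35.7% hold GGGCGG and 13.6% hold TATAAA.
Map1b: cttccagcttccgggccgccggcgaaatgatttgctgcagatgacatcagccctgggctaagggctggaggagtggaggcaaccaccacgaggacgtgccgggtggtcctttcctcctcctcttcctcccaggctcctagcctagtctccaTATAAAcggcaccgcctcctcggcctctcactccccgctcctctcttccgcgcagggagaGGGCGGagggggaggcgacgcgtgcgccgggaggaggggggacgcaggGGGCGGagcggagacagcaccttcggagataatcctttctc
Map2: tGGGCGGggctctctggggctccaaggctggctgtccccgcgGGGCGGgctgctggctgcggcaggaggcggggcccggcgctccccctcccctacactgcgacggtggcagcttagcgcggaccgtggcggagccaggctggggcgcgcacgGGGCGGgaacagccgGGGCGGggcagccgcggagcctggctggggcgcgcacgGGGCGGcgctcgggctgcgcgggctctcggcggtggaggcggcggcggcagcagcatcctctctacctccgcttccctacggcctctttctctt

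Of the neurite growth genes, Stmn2 (ENSMUSG00000027500, chromosome 3, 8509360 to 8561606, plus strand) was at 101.5, 110.7 and 108.1 FPKM in WT and at 131.6, 136.1 and 134.5 FPKM in KO replicates 1, 2 and 3. Its values were even within each genotype (106.8 ± 4.78 and 134.0 ± 2.28 FPKM, SD, n = 3 per group), and the groups were well apart. Stmn2 differed by 0.33 on the log2 scale (standard error 0.0895, 95% confidence interval 0.12 to 0.54, limma adjusted p = 0.2725). Gap43 (ENSMUSG00000047261, chromosome 16, 42248442 to 42340651, minus strand) was at 161.1, 246.4 and 128.9 FPKM in WT and at 281.3, 231.4 and 194.6 FPKM in KO. WT replicate 2 lay above 2 KO libraries, and the log2 fold change of 0.44 had an interval from −0.15 to 1.02 (limma adjusted p = 0.4056). It was 0.23 without WT replicate 3 and 0.69 without WT replicate 2. Markers of immature neurons, 6 genes such as Nnat, summed to 103.6, 156.3 and 39.69 FPKM in WT and to 157.0, 88.68 and 101.4 FPKM in KO, and none of the 6 was at 0 in all libraries. Their part in the Gap43 values was not tested.

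Tubb3 (ENSMUSG00000062380, chromosome 8, 123411424 to 123422015, plus strand) was at 235.0, 329.3 and 245.2 FPKM in WT and at 313.4, 249.2 and 242.6 FPKM in KO replicates 1, 2 and 3. The groups covered almost the same range, and the log2 fold change was −0.0009, with an interval from −0.40 to 0.39 (limma adjusted p = 0.9982). Tubulin genes share long stretches of sequence, so reads may have been split between Tubb3 and its paralogs.

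**Figure D3:**
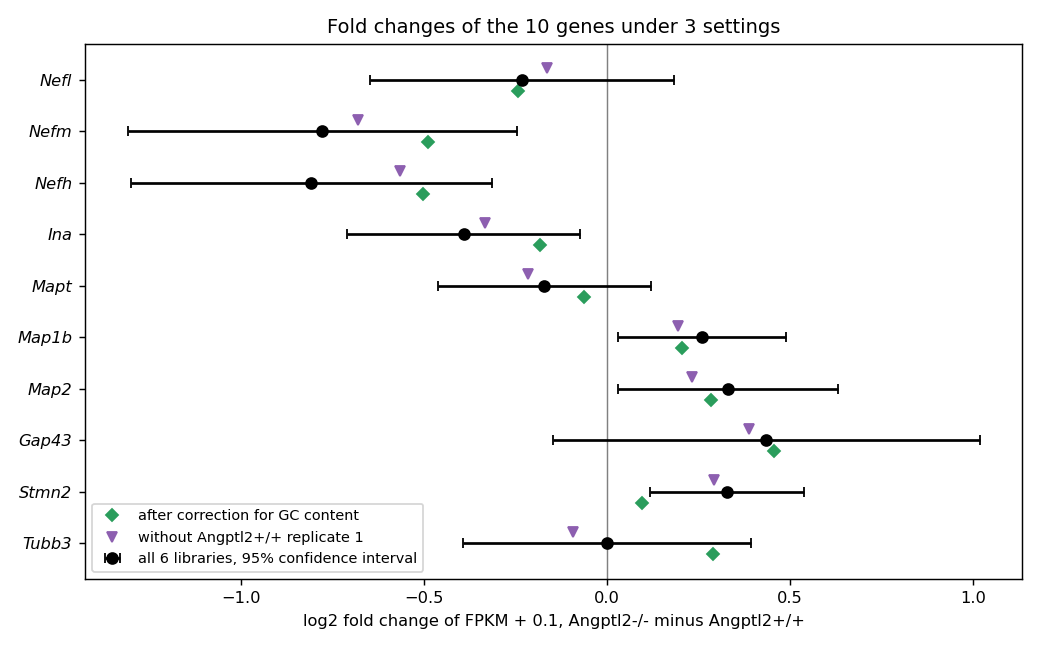
log2 fold change of FPKM + 0.1, Angptl2-/- minus Angptl2+/+, for the 10 genes: black points with 95% confidence intervals from all 6 libraries, triangles without Angptl2+/+ replicate 1, and diamonds after correction for GC content. The negative values of Nefm and Nefh move from −0.78 and −0.81 to −0.49 and −0.50 after the GC correction, and Tubb3 moves from −0.0009 to 0.29.

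Over all genes, fold changes went with the GC content of the transcripts. Across 14845 genes, fold change and GC content of the longest transcript had a Pearson r of −0.479, a description across genes, which are not independent. The low genes Nefh (58.4% GC), Nefm (57.8% GC) and Ina (55.5% GC) were GC-rich, and the high gene Stmn2 (41.3% GC) was GC-poor. Tubb3 had 57.9% GC and a log2 fold change near 0. At similar GC content, Nefl (48.8% GC) had a negative fold change, and Map1b (47.6% GC), Map2 (47.8% GC) and Gap43 (49.7% GC) had positive ones. After a loess correction of each library for GC content, the log2 fold change was −0.50 for Nefh, −0.49 for Nefm, −0.18 for Ina and 0.09 for Stmn2. Mapt was at −0.06 after it, and Map1b (0.20), Map2 (0.28), Gap43 (0.46) and Nefl (−0.24) moved less than Nefh and Nefm. With this correction 1 of the 10 genes, Tubb3 (log2 fold change 0.29), was higher at an unadjusted p under 0.05, beside 3.41% of all genes, and 0 were lower, beside 3.47%. After the correction all 5 ratios overlapped between the groups, including Nefm to Nefl, Nefh to Nefl, Nefh to Gap43 and Map1a to Map1b, which had been apart.

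**Figure D4:**
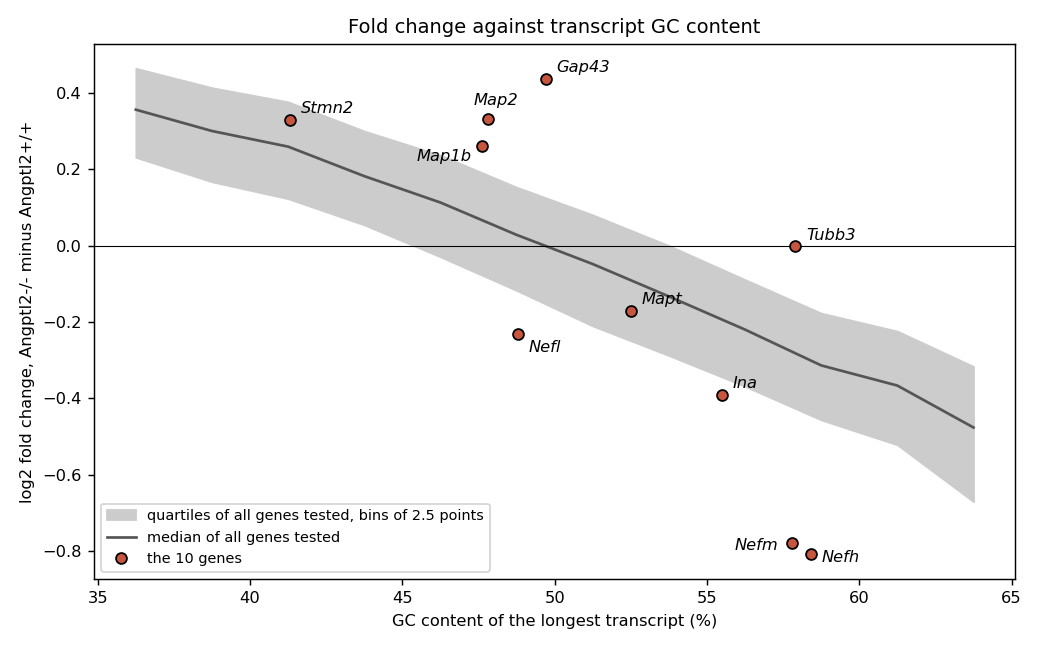
log2 fold change (vertical axis) against the GC content of the longest transcript in percent (horizontal axis), with the median and quartiles of all genes tested in bins of 2.5 points and the 10 genes as points. The neurofilament subunits Nefl, Nefm, Nefh and Ina lie below the quartile band of their bin, and Gap43, Map2, Map1b and Tubb3 lie above it.

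The genes whose levels were most like the mean of Nefl, Nefm and Nefh over the 6 libraries were Cryab (Pearson r 0.989), Pvalb (0.983), Pamr1 (0.980), Alox12b (0.978) and Sec14l2 (0.977). These r values describe 6 libraries that share their genotype groups, and no test was made. Pvalb, which encodes the calcium-binding protein parvalbumin of fast-spiking interneurons and Purkinje cells, was at 45.21, 14.65 and 30.61 FPKM in WT and at 6.56, 11.27 and 10.20 FPKM in KO replicates 1, 2 and 3. Cryab, a small heat shock protein of glia and other cells, was at 37.35, 19.41 and 32.10 FPKM in WT and at 15.48, 21.11 and 17.75 FPKM in KO. Both were highest in WT replicate 1, as Nefh was.

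A further 77 genes of the axonal cytoskeleton were grouped into 8 lists. Of these, 76 were tested and 0 passed an adjusted p under 0.05. At an unadjusted p under 0.05, 5 were higher and 8 lower, beside 7.09% and 9.12% of all genes, which is also the background for the count in each list, and their median log2 fold change was −0.01, beside −0.0043 for all genes. The other intermediate filaments, 4 genes, had 1 lower at the unadjusted p, Nes of neural progenitors (log2 fold change −0.63), while Gfap of astrocytes, the most abundant, was at −0.46. Prph, an intermediate filament of peripheral and brainstem neurons, was at 4.74 FPKM in WT replicate 1 and at 0.50 to 0.82 FPKM in the other 5 libraries.

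Of the 12 other tubulins, 1 was higher (Tuba1a) and 1 lower (Tubb4a, log2 fold change −0.29) at the unadjusted p. Tuba1a, an alpha-tubulin of developing neurons and the most abundant of them, was at 487.9, 559.0 and 528.6 FPKM in WT and at 649.2, 693.0 and 698.4 FPKM in KO (log2 fold change 0.37, limma adjusted p = 0.2725). Of the 14 other microtubule-binding proteins, 2 were higher, Mapre1 (log2 fold change 0.34) and Dcx of migrating neurons (0.80), and 1, Map1s (−0.40), was lower. Among 5 tested stathmins and microtubule-severing proteins 0 were higher and 0 lower, with Stmn3 at −0.10 and Spast, which severs microtubules, at 0.23. The 8 growth cone and collapsin response proteins also gave 0 in either direction, with Dpysl3 at 0.59 and Basp1, the most abundant, at −0.21.

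Of 13 axonal motors, 2 were lower at the unadjusted p and 0 higher. Klc2, a kinesin light chain, was at 60.13, 58.48 and 64.28 FPKM in WT and at 42.40, 43.26 and 37.59 FPKM in KO, and had the smallest p of all these lists (log2 fold change −0.57, limma adjusted p = 0.2725). Kif5a, the neuronal kinesin heavy chain that carries neurofilaments, was at 253.8, 219.1 and 293.7 FPKM in WT and at 206.2, 208.1 and 172.2 FPKM in KO (log2 fold change −0.38). In both genes every KO library lay below every WT library. Over the 76 tested genes of the 8 lists, 8 were higher and 12 lower without overlap, beside 10.7% and 11.8% of all genes. The 9 genes of the membrane skeleton gave 0 in either direction. Of 11 kinases of tau and neurofilaments and their activators, 2 were higher and 3 lower at the unadjusted p. The higher ones were Mapk8 (log2 fold change 0.48, 40.1% GC) and Gsk3b (0.29, 46.1% GC). The lower ones were Cdk5r2, an activator of CDK5 (−0.61, 63.9% GC), Mark4 (−0.36, 60.6% GC) and Gsk3a (−0.27, 59.8% GC). Over all genes tested, the median log2 fold change was 0.26 at 40 to 42.5% GC and 0.11 at 45 to 47.5% GC. It was −0.31 at 57.5 to 60% GC, −0.37 at 60 to 62.5% GC and −0.48 at 62.5 to 65% GC. The part of GC content in the differences of these 8 lists was not tested.

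**Figure D5:**
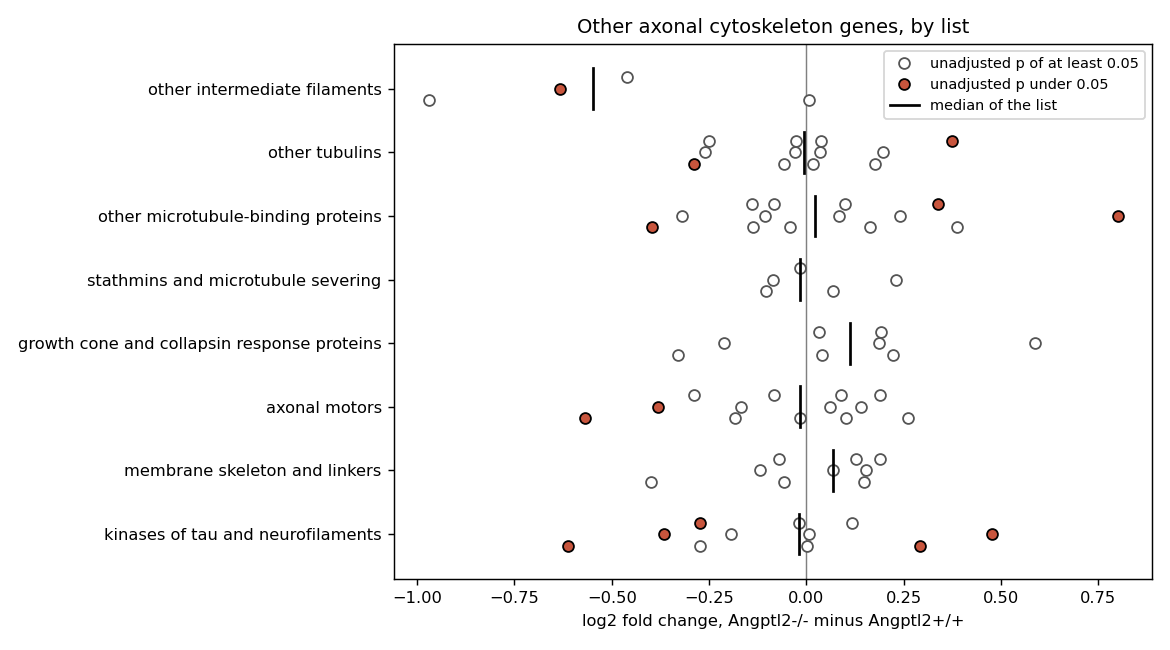
log2 fold change, Angptl2-/- minus Angptl2+/+ (horizontal axis), of the 76 tested genes in 8 lists of the axonal cytoskeleton, with 1 point per gene and a line at the median of each list. Filled points have an unadjusted p under 0.05, and 0 genes passed the adjusted p.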

How the data were processed

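Brain RNA of 3 Angptl2+/+ and 3 Angptl2-/- samples was sequenced by the authors on an Illumina HiSeq in paired-end mode. A table of FPKM, made by the authors without pooling, was deposited with 1 column per library. The submitters' processing notes name Bowtie 0.12.2 and mm8. The sources used here do not give the counting tool or its strand setting. Gene identifiers match GENCODE M21 (GRCm38) for 54495 of 54532 genes, so symbols, lengths and coordinates are from that annotation. FPKM multiplied by exon length and by a depth fitted to each library gave whole fragments, within 0.05, for 96.64 to 96.77% of values above 0. The depth was chosen to make small values whole, so this share is not an independent check.

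A gene entered the test at a mean of 0.5 FPKM or more. The test was limma 3.58.1 (R 4.3.3, intensity trend, two-sided) on log2(FPKM + 0.1) with Benjamini-Hochberg adjustment over 14862 genes. A fold change on this scale understates that of low genes. The code was run on simulated data with less spread than these libraries and large planted differences. That run does not show how often the test would find differences of the size seen here. The 10 genes and all lists were chosen with earlier results of these data known. Other genes were named by rule: in each list the smallest p and the highest mean, and the 5 protein-coding genes most like Nefl, Nefm and Nefh; Prph and the other genes named for an unadjusted p were chosen after their values were seen. The gene named by this rule in 1 list, and 1 marker gene, are not reported here. Alternatives were pseudocounts of 1 and 0.01, other filters, scalings and moderation, voom, a replicate block, leaving out each library, and corrections for GC content and length (loess span 0.3). A sex covariate, and the GC correction of the ratios, were added after seeing the data. Python 3.11.15 with pandas 2.3.3 and matplotlib 3.10.9 was used.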

Additional observations from a re-analysis of the deposited data

How the results depend on the processing

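Of the 10 genes, 9 kept the direction of their log2 fold change under all 20 alternatives, and 0 passed an adjusted p under 0.05 in any; the lowest adjusted p was 0.1949, for Stmn2 without Angptl2-/- replicate 1. Tubb3, at −0.0009, turned positive with median-ratio scaling (0.0041), quantile normalization (0.0241), a scaling that left out mitochondrial and haemoglobin genes (0.0135), GC correction (0.2902), length correction (0.1024) and a sex covariate (0.0052), and ranged from −0.1175 to 0.1512 on leaving out 1 library. The number of all genes called was 0, and 1 with the replicate number as a block, 1 with a sex covariate, and 0 to 1 on leaving out 1 library; at an unadjusted p it was 2409 genes, with 6 of the 10 genes and 13 of the listed genes. Without Angptl2+/+ replicate 1 or without Angptl2-/- replicate 3, 1 of the 10 genes was higher and 2 were lower at an unadjusted p (Stmn2, Nefm and Nefh), beside 4.03% and 6.73% of all genes in the first case and 3.13% and 5.62% in the other. The median of the 10 genes was 0.0156 after GC correction and ranged from −0.1282 to 0.0048 on leaving out 1 library. GC correction gave log2 differences in ratio of −0.2474 for Nefm to Nefl, −0.2594 for Nefh to Nefl, 0.0603 for Ina to Nefl and −0.3402 for Map1a to Map1b; Ina to Nefl ranged from −0.3597 to 0.0033 on leaving out 1 library. Angptl2 was at −1.21, and at −0.4247 with a pseudocount of 1. Causes of these changes were not tested, beyond the construction of each alternative.

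Samples with the same replicate number in the 2 genotypes did not deviate together (correlations 0.037, −0.069 and 0.162), so the numbers were not taken as pairs. Correlations between different numbers ran from −0.256 to 0.257. The most alike libraries of all were Angptl2+/+ replicate 2 and Angptl2-/- replicate 1 (Pearson r 0.9662 over genes), so likeness did not simply follow genotype. With the replicate block, 0 of the 10 genes passed the adjusted p. In this balanced design the block cannot alter a fold change, so their median of −0.0861 is the same by construction.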
